A study of Mus musculus with 12 samples.

Results

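The genes described here are the nuclear genes of respiratory complex I, measured in whole blood of mice kept at normal or low oxygen. A gene was taken as a member when a probe set of the array named that gene alone and its symbol began with Ndufa, Ndufb, Ndufc, Ndufs, Ndufv or Ndufaf. The rule gave 44 of the 18194 genes with such a probe set. Of these, 34 encode subunits of the complex, 8 are the assembly factors Ndufaf1 to Ndufaf8, and Ndufa4 and Ndufa4l2 share the name without being counted here as subunits. The blood came from 12 C57Bl/10 mice aged 3 months, 1 mouse per Affymetrix Mouse 430 2.0 array, in 3 groups of 4. The NX mice breathed 21% oxygen, the CH mice underwent 14 days of normobaric chronic hypoxia in which the oxygen was varied from day to day and stood at 8% at the end, and the REC mice underwent the same 14 days of hypoxia and then 14 days at 21%. All were normal mice that carried no other allele and received no other agent according to the labels, and whole blood mixes red cells, white cells and platelets in proportions that were not measured on these arrays. The groups follow the titles, the source names and the protocol; the sample id field, which has the CH mice as normoxic, was not followed. The question was which genes of the complex differed in blood between NX, CH and REC, and whether its subunits and its assembly factors did so alike.

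Complex I is the entry point of the mitochondrial respiratory chain. It takes electrons from NADH, passes them along a row of iron-sulfur clusters in its matrix arm to ubiquinone, and uses the energy to pump protons through its membrane arm. The subunits that carry the chemistry are called core subunits, and the others, called accessory or supernumerary subunits, surround them. The complex is put together from separately built modules with the help of assembly factors that are not part of the finished enzyme. Mature red blood cells contain no mitochondria and reticulocytes still hold some, while white blood cells and platelets keep theirs.

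A difference of at least 2-fold was called when its limma p, adjusted by Benjamini-Hochberg across the 45101 probe sets, was under 0.05. Changes are differences of group means of log2(signal + 16), given with the standard error (SE) of the fit, and folds refer to that scale, which understates the change of dim genes. Every array had been scaled to the same trimmed mean of 150.0, so a change is relative to the rest of the RNA on the array. The signals of the hybridization controls, bacterial and phage transcripts added in known amounts, differed between the groups, by 1.61 on the log2 scale in CH and by -0.81 in REC against NX, and the 4 arrays of each of these groups lay apart from the 4 NX arrays (exact two-sided permutation test, p = 0.0286, the smallest that 4 against 4 arrays can give). In CH, 21.0% of the signal lay in the 100 brightest probe sets, controls included, against 12.2% in NX and 9.13% in REC. The ratio of 3′ to 5′ signal of actin was 1.91 to 2.11 in CH, above the 1.61 to 1.86 in NX. In REC it was 1.54 to 1.73, overlapping NX. The same ratio of GAPDH was 1.67 to 1.84 in REC, below the 1.87 to 2.31 in NX. In CH it was 1.87 to 2.73, overlapping NX. The part of these ratios in the results below was not tested. Markers of blood cells moved as well: 12 of 12 erythroid markers were called higher in CH and 8 of 12 lower in REC than in NX, and 8 of 9 B cell, 8 of 9 T cell and 4 of 7 NK cell markers were called lower in CH, where 1 NK cell marker was higher. Of the monocyte markers 2 of 7 were called lower in CH, and of the 8 neutrophil and 7 platelet markers limma called 0 in CH and 0 in REC, with 0 of the neutrophil and 1 of the platelet markers at an unadjusted p under 0.05 and 0 called without moderation. In REC limma also called 0 of the B cell and 0 of the monocyte markers, with 1 of each at an unadjusted p under 0.05 and 0 of both called without moderation. These counts hold for the signals as deposited. Over all genes, 9.08% were called higher and 19.5% lower in CH, and 2.50% higher and 1.79% lower in REC. After quantile normalization 2 neutrophil and 3 platelet markers were called lower in CH. When scaled on the hybridization controls, 6 of each were called lower in CH, and 3 platelet, 1 B cell and 2 monocyte markers higher in REC. Fewer cells of a type and less RNA per cell cannot be told apart in such samples, and the part of the cell types in the results below was not tested.

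Of the 44 members, 13 were called higher in CH than in NX, among them 12 of the 34 subunits, and 9 were called lower, of which 4 were subunits and 5 were assembly factors. Over all genes, 9.08% were called higher and 19.5% lower, so the number of members called lower lay near the share over all genes. The split depended on the scaling: it was 10 higher and 4 lower after quantile normalization, and 1 higher and 28 lower when the arrays were scaled on their hybridization controls, where Ndufs1, Ndufa10, Ndufa5 and Ndufb8 turned below 0. With the probe set used for each gene, the largest increase was that of Ndufa1 (11.2-fold), followed by Ndufb11 (5.36-fold), Ndufa13 (5.19-fold) and Ndufa3 (4.88-fold), all of the membrane arm. On the same basis, the largest decreases were those of the subunit Ndufb5 (3.06-fold) and of the assembly factors Ndufaf3 (2.68-fold) and Ndufaf2 (2.53-fold). The median change of the 34 subunits was 0.09 and that of the 8 assembly factors was -1.10, against 0.05 for all genes. No assembly factor was called higher by limma, with 0 at an unadjusted p under 0.05 and 0 called without moderation.

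**Figure D1:**
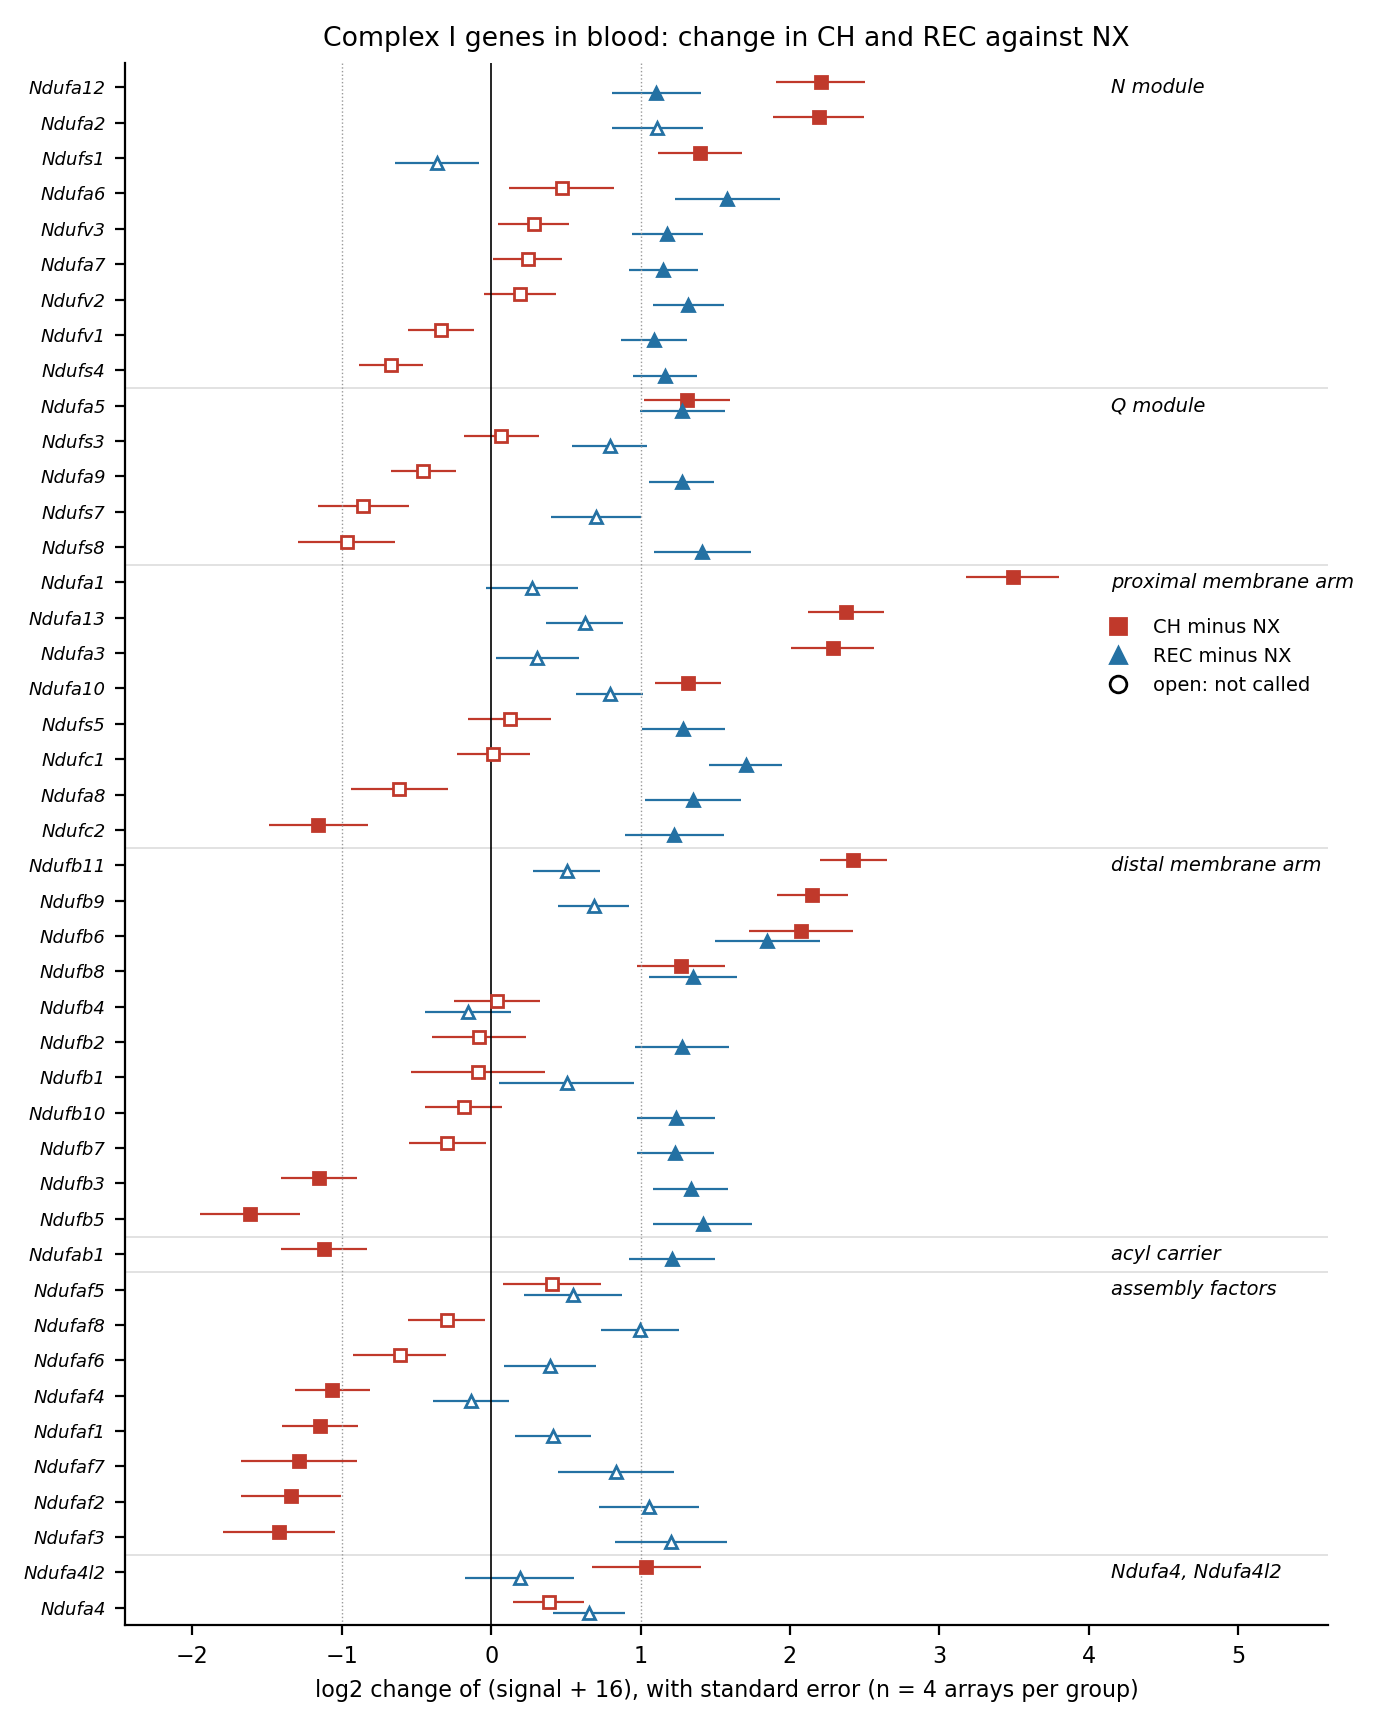
Change of each of the 44 complex I genes on the log2 scale (x axis, log2 of signal + 16, with the SE of the fit, 4 arrays per group) in CH (red squares) and REC (blue triangles) against NX. Genes are ordered by the part of the complex, filled symbols were called and dotted lines mark a 2-fold change. Red points spread from -1.61 for Ndufb5 to 3.49 for Ndufa1, while 41 of the 44 blue points lie above 0. Scaled on the hybridization controls, Ndufa1 alone of the 13 filled red points right of 0 stays called.

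Promoter sequences are shown for the members whose increase and decrease in CH against NX were the largest, so that the windows of genes that moved in opposite directions can be compared, and for Ndufb6 and Ndufa5, which hold the ETS and the NRF1 letters described below. They come from RefSeq (build GRCm38.p6) and run 5′ to 3′ along the gene's strand. Each covers 250 bases before to 50 bases after a start of the gene. For Ndufa5 the window shown is that of a start further downstream. The window at the outermost start of Ndufa5 (chr6:24527641-24527940) also held the NRF1 palindrome. RefSeq promoters were matched for 39 of the 44 members. Capitals mark a match of a motif on either strand.
Ndufa1 (chrX:37191189-37191488, minus strand, higher in CH): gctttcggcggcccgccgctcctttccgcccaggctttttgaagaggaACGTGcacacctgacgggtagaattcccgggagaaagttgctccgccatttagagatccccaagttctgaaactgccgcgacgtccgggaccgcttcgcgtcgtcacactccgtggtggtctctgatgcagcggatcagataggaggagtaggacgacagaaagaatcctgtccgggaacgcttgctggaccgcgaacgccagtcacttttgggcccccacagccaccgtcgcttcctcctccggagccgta
Ndufb11 (chrX:20617570-20617869, minus strand, higher in CH): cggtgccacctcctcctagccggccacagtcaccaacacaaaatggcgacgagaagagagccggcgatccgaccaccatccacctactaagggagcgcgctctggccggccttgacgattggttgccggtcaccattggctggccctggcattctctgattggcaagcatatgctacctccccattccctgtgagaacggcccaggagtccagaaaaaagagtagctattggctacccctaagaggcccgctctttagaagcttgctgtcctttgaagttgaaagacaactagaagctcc
Ndufb5 (chr3:32736813-32737112, plus strand, lower in CH): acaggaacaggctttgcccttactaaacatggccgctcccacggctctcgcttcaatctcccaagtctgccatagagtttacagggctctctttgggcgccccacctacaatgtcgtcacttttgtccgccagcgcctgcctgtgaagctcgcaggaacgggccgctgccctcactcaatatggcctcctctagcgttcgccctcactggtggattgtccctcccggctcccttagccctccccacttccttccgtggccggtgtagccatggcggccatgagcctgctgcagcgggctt
Ndufaf3 (chr9:108567387-108567686, minus strand, lower in CH): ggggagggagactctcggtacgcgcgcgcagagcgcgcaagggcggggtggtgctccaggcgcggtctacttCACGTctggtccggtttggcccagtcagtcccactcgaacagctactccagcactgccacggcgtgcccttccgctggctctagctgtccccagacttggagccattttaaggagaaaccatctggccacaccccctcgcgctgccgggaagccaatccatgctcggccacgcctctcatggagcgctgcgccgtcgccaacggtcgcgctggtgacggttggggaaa
Ndufb6 (chr4:40279372-40279671, minus strand, higher in CH and in REC): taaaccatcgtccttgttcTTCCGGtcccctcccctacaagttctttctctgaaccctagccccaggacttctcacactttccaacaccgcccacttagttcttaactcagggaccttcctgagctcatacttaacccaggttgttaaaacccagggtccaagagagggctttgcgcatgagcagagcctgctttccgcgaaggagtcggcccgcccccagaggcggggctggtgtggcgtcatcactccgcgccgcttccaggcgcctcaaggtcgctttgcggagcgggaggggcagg
Ndufa5 (chr6:24527477-24527776, minus strand, higher in CH and in REC): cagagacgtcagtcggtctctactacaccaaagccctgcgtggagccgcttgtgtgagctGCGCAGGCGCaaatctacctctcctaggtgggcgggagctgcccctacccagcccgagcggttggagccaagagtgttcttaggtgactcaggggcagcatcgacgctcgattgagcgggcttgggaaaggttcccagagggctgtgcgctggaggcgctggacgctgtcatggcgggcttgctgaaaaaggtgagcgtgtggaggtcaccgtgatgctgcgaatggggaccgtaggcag

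The motifs searched were the palindrome of the nuclear respiratory factor NRF1 (GCGC, any base, then TGCGC, on either strand), the core of ETS factors such as GABP (CCGGAA), the hypoxia response core that HIF recognises (ACGTG) and, added after the values had been seen, the core letters of GATA factors (GATAA). The search covered both strands, and none of the 4 strings of letters contains another. The capitals are an ACGTG match in Ndufa1 and in Ndufaf3, an ETS core in Ndufb6 and an NRF1 palindrome in Ndufa5. Ndufb11 and Ndufb5, which moved in opposite directions, held none of the 4. Of the 39 member promoters, 7 held the NRF1 palindrome (17.9%), against 5.19% of the 27025 promoters of all genes. Those 7 were Ndufa5, Ndufa6, Ndufa8, Ndufb4, Ndufs5, Ndufaf4 and Ndufaf5. The ETS core stood in 12 (30.8%, against 16.7% of all), ACGTG in 8 (20.5%, against 21.8%) and GATAA in 6 (15.4%, against 28.4%). Among the members called higher in CH, 2 of the 9 with a promoter held ACGTG, and among those called lower 1 of 9 did. These are counts of letters in a fixed window, and no binding was measured.

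The matrix arm begins with the N module, which oxidises NADH. Its core is formed by Ndufv1, which binds NADH and the flavin, Ndufv2 and Ndufs1, of which Ndufs1 carries most of the iron-sulfur clusters of the module. Signals of Ndufs1 on the 4 arrays were 404, 447, 539 and 362 in NX, 1131, 1172, 723 and 1939 in CH and 314, 304, 389 and 333 in REC. All CH arrays lay above all NX and REC arrays, whereas NX and REC overlapped. Ndufs1 was the core subunit called higher in CH (1.40 ± 0.28, limma adjusted p = 0.00182), although its sign turned (-0.18) when the arrays were scaled on their hybridization controls. Ndufv2 gave 374, 557, 517 and 449 in NX and 491, 533, 431 and 744 in CH, overlapping ranges, with 1010.4, 1203, 1409 and 1186 in REC, above both. The change of Ndufv2 was 0.19 ± 0.24 in CH (adjusted p = 0.588 by limma) and 1.32 ± 0.24 in REC (0.00642). Ndufv1 had means of 314 ± 58.8 (SD, n = 4) in NX, 244 ± 30.4 in CH and 683 ± 73.4 in REC. Thus neither Ndufv1 nor Ndufv2 passed the test in CH, and both were called higher in REC. When scaled on the hybridization controls, both were called lower in CH. The other probe sets of Ndufv1 were not called in REC, with 1.23 ± 0.40 (limma adjusted p = 0.0959) and 0.87 ± 0.23, although all REC arrays lay above NX in each.

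Around this core, the accessory subunits Ndufa12 and Ndufa2 were called higher in CH. Ndufa12 lies over the N module and takes the place that its paralogue, the assembly factor Ndufaf2, holds in the last assembly step. Its signals were 777, 991, 887 and 789 in NX, 4539, 4606, 2182 and 5686 in CH and 1627, 1987, 2563 and 1449 in REC. All CH and all REC arrays lay above the NX arrays, and its change in CH was 2.21 ± 0.30 (limma adjusted p = 0.00011). Ndufa2, a small protein with a thioredoxin-like fold, went from 896 ± 202 (SD, n = 4) in NX to 4299 ± 1753 in CH and 1962 ± 475 in REC, with a change of 2.19 ± 0.30 in CH (limma adjusted p = 0.000136). The other accessory subunits of the module, Ndufa6, Ndufv3, Ndufa7 and Ndufs4, had differences between -0.67 and 0.47 in CH, none of them called. In REC, 7 of the 9 measured N module genes were called higher, against 2.50% of all genes. Ndufa6, a LYR protein that holds an acyl carrier, changed most (1.58 ± 0.35).

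The Q module hands the electrons to ubiquinone. Its core subunits Ndufs7 and Ndufs8 carry the last iron-sulfur clusters and Ndufs3 holds none. With the probe set used for each gene, none of the 3 was called in CH. Ndufs8 gave 435, 714, 877 and 547 in NX, 168, 292, 429 and 434 in CH and 1591, 2009, 2002 and 1255 in REC. The CH arrays lay below all NX arrays, but the change of -0.97 ± 0.32 stayed under 2-fold (limma adjusted p = 0.0362). Another probe set of Ndufs8, of similar brightness, was called lower in CH (-1.15 ± 0.31, limma adjusted p = 0.0129). A dim one was called higher (1.43 ± 0.36), and the rest were not called. In REC, Ndufs8 was called higher (1.41 ± 0.32). Ndufs7 had a difference of -0.86 ± 0.30 in CH and Ndufs3 of 0.07 ± 0.25. The accessory subunit Ndufa5 was the Q module gene called higher in CH, from 489 ± 97.8 (SD, n = 4) in NX to 1264 ± 352, and it was also higher in REC (1224 ± 317). Ndufa9, a nucleotide-binding subunit at the foot of the matrix arm, had a difference of -0.46 ± 0.22 in CH, not called, and was called higher in REC (1.28 ± 0.22).

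In the proximal membrane arm, next to the matrix arm, 4 of the 8 measured genes were called higher in CH and 1 lower. Over all genes, the shares were 9.08% higher and 19.5% lower. Ndufa1, a single-pass membrane protein of the X chromosome needed for the assembly of the membrane arm, had signals of 1170.2, 1411, 1172 and 2125 in NX, 12039.6, 16458, 11816 and 29234 in CH and 2158, 1615, 1709 and 1486 in REC. The lowest CH array stood far above the highest NX and REC arrays, and NX and REC overlapped. Its change in CH was 3.49 ± 0.31 (limma adjusted p = 4.45e-06). Ndufa1 was the one member still called higher in CH when the arrays were scaled on the hybridization controls (1.88).

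Ndufa13, also known as GRIM-19, gave 1857, 2789.7, 2873 and 2706 in NX and 11650.5, 14223, 9488 and 18926 in CH, with 4088, 4329, 3806 and 3413 in REC. The 3 groups were fully separated, in the order NX, REC, CH, and the change in CH was 2.37 ± 0.26 (limma adjusted p = 1.75e-05), while that in REC was not called (0.63 ± 0.26, adjusted p = 0.207). Ndufa3 had differences of 2.29 ± 0.28 in CH and 0.31 ± 0.28 in REC, and Ndufa10, a relative of nucleoside kinases, of 1.32 ± 0.22 and 0.79 ± 0.22. Both were called in CH against NX and neither in REC against NX. Ndufc2, a partner of the ND2 protein, went the other way in CH (-1.16 ± 0.33). Its signals were 503, 797, 893 and 630.3 in NX, 195, 224, 537 and 342 in CH and 1692, 1938, 2062 and 1056 in REC. CH replicate 3 lay within the NX range, and the call was lost without any one of NX replicates 2 and 3 and CH replicates 1 and 2, where the smallest change was -0.96. Ndufc1 was not called in CH (0.01 ± 0.24), and all 4 of its REC arrays lay above NX (516, 710.2, 965 and 627 in NX, 1865, 2440.2, 2891 and 2027 in REC). Ndufa8 and Ndufs5, which face the intermembrane space, were not called in CH (-0.61 and 0.12) and were called higher in REC (1.35 and 1.29).

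**Figure D2:**
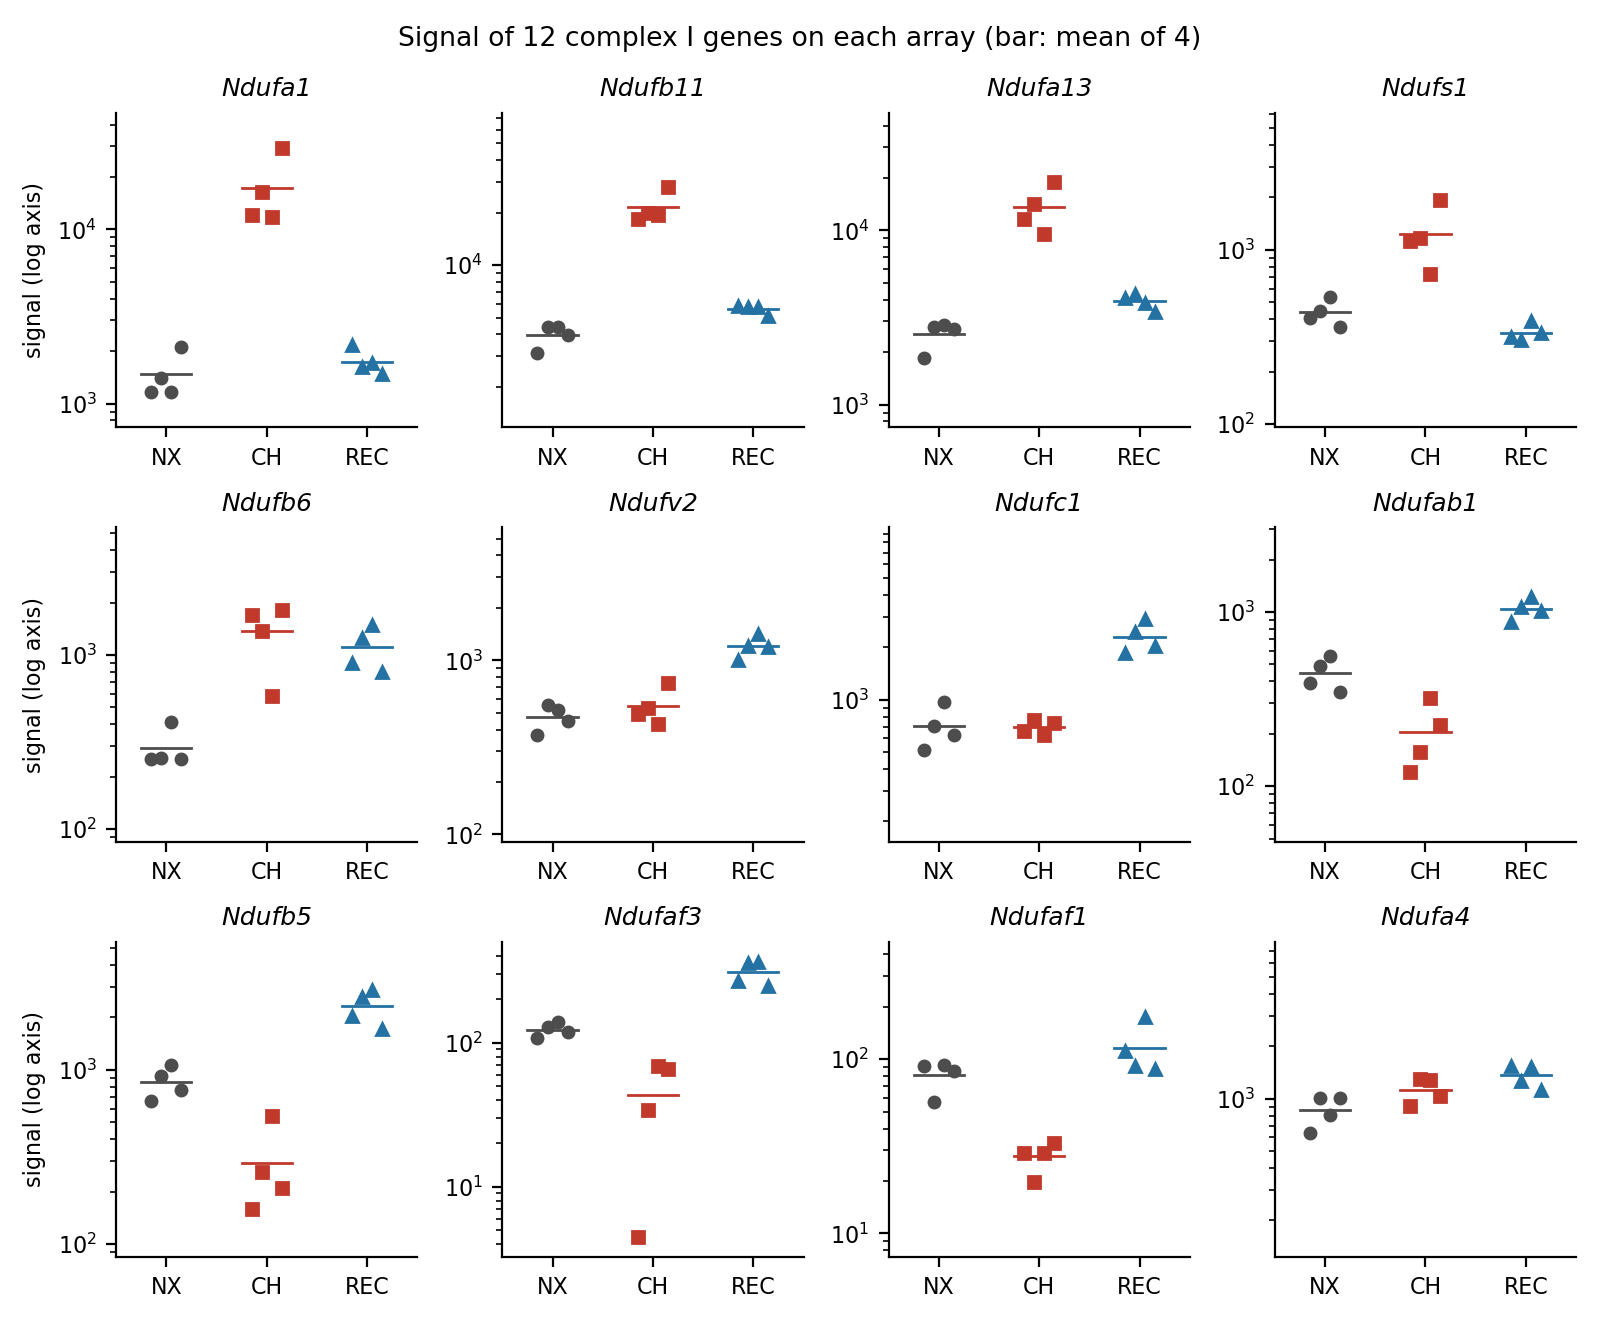
Signal of 12 complex I genes (y axis, linear signal drawn on a log axis) on each of the 4 arrays of NX (grey circles), CH (red squares) and REC (blue triangles), with a bar at the mean. Ndufa1, Ndufb11, Ndufa13 and Ndufs1 have all CH arrays above both other groups, Ndufb5, Ndufab1, Ndufaf3 and Ndufaf1 have all CH arrays below both, and Ndufv2 and Ndufc1 have all REC arrays above both. When scaled on the hybridization controls, Ndufa1 keeps its call in CH, Ndufb11 and Ndufa13 lose it and Ndufs1 turns below 0.

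In the distal membrane arm, which holds the last proton pumps, 4 of the 11 measured genes were called higher in CH and 2 lower. Over all genes, 9.08% were called higher and 19.5% lower, so the 2 called lower lay near the share over all genes. Ndufb11, the second member of the X chromosome, gave 3126, 4422, 4426 and 3963 in NX, 18514, 20039.8, 19437 and 28176 in CH and 5819, 5738, 5780.2 and 5124 in REC. The groups were fully separated, with CH highest, and the change in CH was 2.42 ± 0.22 (limma adjusted p = 5.75e-06). Ndufb9, a LYR protein that holds an acyl carrier, went from 701 ± 147 (SD, n = 4) to 3172 ± 706 in CH (2.15 ± 0.24). Ndufb6 gave 253, 256, 411 and 251 in NX, 1708, 1376, 581 and 1818 in CH and 896, 1247, 1480.0 and 799 in REC. Both CH and REC lay above NX and overlapped each other, with changes of 2.07 ± 0.35 and 1.85 ± 0.35. Ndufb8 also had CH and REC above NX and overlapping each other, with 1.27 ± 0.29 in CH and 1.35 ± 0.29 in REC.

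The distal subunits Ndufb5 and Ndufb3 ran against these. Ndufb5 had signals of 662, 927, 1067 and 765 in NX, 159, 261, 543 and 211 in CH and 2051, 2625, 2891 and 1712 in REC. No group overlapped another, and the order was CH, NX, REC, with a change of -1.61 ± 0.33 in CH (limma adjusted p = 0.00221) and 1.42 ± 0.33 in REC (adjusted p = 0.0249). Ndufb3 followed the same order, at 317 ± 107 (SD, n = 4) in CH, 709 ± 127 in NX and 1805 ± 248 in REC. Ndufb2, Ndufb7 and Ndufb10 had differences of -0.08, -0.29 and -0.18 in CH, none called, and were called higher in REC by 1.28, 1.23 and 1.24. Ndufb1 was called in neither comparison and lay below the median signal of the array on 6 arrays. The probe set that names Ndufb4 alone was called in neither, and it was dim, below that median on all 12 arrays. A pair of brighter probe sets that name Ndufb4 together with Ndufb4b and Ndufb4c was called higher in CH (1.24 and 1.19) and in REC (1.37 and 1.35), so the level of Ndufb4 is uncertain.

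Ndufab1 is the mitochondrial acyl carrier protein, which sits in both arms of complex I and also serves fatty acid and lipoic acid synthesis. Signals were 391, 489.8, 556 and 349 in NX, 119.9, 157, 322 and 225 in CH and 871, 1067, 1224 and 1014 in REC. The groups did not overlap, and the order was again CH, NX, REC. Its change was -1.12 ± 0.29 in CH (limma adjusted p = 0.00899) and 1.21 ± 0.29 in REC. Without CH replicate 1 the change in CH was -0.91, under 2-fold. Its other probe sets that name no other gene were not called in CH (-0.93, -0.36, 0.45 and 0.60). In REC the first of these was called higher (1.47) and the rest were not called (-0.47, -0.34 and -0.24). With probe sets averaged per gene, Ndufab1 was called neither in CH nor in REC against NX. A dimmer probe set shared with a pseudogene, Ndufab1-ps, was called lower in CH (-1.97 ± 0.34). The LYR proteins that hold it in the complex had other patterns, with 2.15 for Ndufb9 and 0.47 for Ndufa6 in CH.

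Of the 8 assembly factors, 5 were called lower in CH than in NX, against 19.5% of all genes. The other 3, Ndufaf5, Ndufaf6 and Ndufaf8, were not called (0.41, -0.61 and -0.30). Ndufaf3 and Ndufaf4 bind each other and act early, at the junction of the Q module and the membrane. Ndufaf3 gave 107, 128, 139 and 119 in NX, 4.49, 34.1, 69.2 and 66.0 in CH and 266, 357, 365 and 247 in REC. All CH arrays lay below the NX arrays and all REC arrays above them, and the change in CH was -1.42 ± 0.38 (limma adjusted p = 0.0105). CH replicate 1 was by far the lowest, and without it the change was -0.98, under 2-fold. Ndufaf4 had means of 149 ± 31.3 (SD, n = 4) in NX, 63.9 ± 19.7 in CH and 134 ± 24.9 in REC. Its change of -1.06 ± 0.25 in CH fell under 2-fold without NX replicate 3, CH replicate 2 or CH replicate 4 (to -0.92 at the least). A second probe set of Ndufaf4 of similar brightness gave 165, 169, 163 and 137 in NX and 31.5, 13.5, 74.96 and 7.41 in CH, all CH arrays below NX, with a change of -2.07 ± 0.37 (limma adjusted p = 0.000785).

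Ndufaf1 belongs with Ecsit and Acad9 to the assembly complex that builds the part of the membrane arm around ND2. It gave 91.5, 56.8, 92.2 and 85.2 in NX, 29.0, 19.8, 29.1 and 33.1 in CH and 111, 91.2, 175 and 88.0 in REC, so that CH lay below both other groups, which overlapped. The change was -1.15 ± 0.25 (limma adjusted p = 0.00357), and the call held without any single array. Ndufaf2, the paralogue of Ndufa12, gave 75.7, 69.1, 93.4 and 26.2 in NX, 6.0, 9.59, 13.0 and 37.4 in CH and 163, 114, 173 and 138 in REC. NX replicate 4 lay within the CH range, and the change was -1.34 ± 0.34 (limma adjusted p = 0.00762). Ndufaf2 was thus called lower in CH where Ndufa12 was called higher. Ndufaf7, a methyltransferase, changed by -1.29 ± 0.39, with overlapping ranges of 59.2 to 128.1 in NX and 7.30 to 75.5 in CH. The call was lost without any one of NX replicates 2 and 3 and CH replicates 1 and 2, where the smallest change was -0.99. Ndufaf5, which hydroxylates an arginine of Ndufs7, and its partner Ndufaf8 gave means of 123 ± 13.0 and 245 ± 45.2 (SD, n = 4) in NX and 186 ± 103 and 200.1 ± 53.3 in CH. Ndufaf6 lay below the array median on 10 of the 12 arrays.

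Ndufa4 was first counted with complex I and is now placed in cytochrome c oxidase, and its paralogue Ndufa4l2 is a known target of HIF. Ndufa4 gave 637, 1010.0, 806 and 1007 in NX, 907, 1296, 1272 and 1036 in CH and 1545, 1257, 1512 and 1121 in REC. The CH and NX ranges overlapped, REC lay above NX, and neither difference was called (0.39 ± 0.24 and 0.65 ± 0.24). Ndufa4l2 gave 10.2, 16.4, 8.90 and 2.76 in NX, 81.5, 43.9, 7.33 and 36.0 in CH and 20.9, 7.79, 16.1 and 7.88 in REC. It was below the array median on 10 of 12 arrays, and CH replicate 3 lay inside the NX range. It was called higher in CH at 1.04 ± 0.37 (limma adjusted p = 0.0457), and the call was lost when any one array other than CH replicate 3 was left out. Without CH replicate 3 the change was 1.42.

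The 4 CH mice differed among themselves. Among the 13 members called higher in CH, CH replicate 3 had the lowest of the 4 CH signals for 11 and CH replicate 4 the highest for 12. Among the 9 called lower, CH replicate 3 had the highest CH signal for 6 and CH replicate 1 the lowest for 7. On CH replicate 3 the summed signal of the 9 B cell markers was 12963, against 2322 to 5606 on the other CH arrays and 19066 to 24014 in NX, and that of the 9 T cell markers was 5357, against 1362 to 1584 and 5656 to 7677. The summed signal of the 12 erythroid markers was 127763 to 205970 in CH, highest on replicate 4, 24825 to 36884 in NX and 4512 to 16803 in REC. No marker of these lists was at 0 on any array, and the B cell marker Pax5 lay below the array median on every one. Without CH replicate 3, 13 members were called higher and 11 lower.

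After 14 days back at 21% oxygen, most complex I subunits stood above NX. In REC against NX, 22 of the 34 subunits were called higher and 0 lower, with 0 lower at an unadjusted p under 0.05 by limma and 0 without moderation, where 2.50% of all genes were called higher and 1.79% lower. The median change of the subunits was 1.19, against -0.02 for all genes. That of the assembly factors was 0.69, and limma called 0 of the 8, with 4 higher at an unadjusted p under 0.05 and 0 called without moderation. The count was 1 after median centring and 7 on the hybridization controls, where the median of the factors was 1.46. Among the 4, Ndufaf3 (1.21 ± 0.38, limma adjusted p = 0.0847) and Ndufaf2 (1.06 ± 0.34, adjusted p = 0.0908) had differences of over 2-fold that missed the threshold. The changes called ran from 1.09 for Ndufv1 to 1.85 for Ndufb6, a range whose lower end is bounded by the 2-fold rule. Ndufc1 stood at 1.70 ± 0.24 (limma adjusted p = 0.00189) and Ndufa6 at 1.58 ± 0.35 (adjusted p = 0.0193). The called subunits came from every part of the complex: 7 of 9 genes of the N module, 3 of 5 of the Q module, 4 of 8 of the proximal and 7 of 11 of the distal membrane arm, and Ndufab1. Ndufs1 (-0.36), Ndufb4 (-0.15) and Ndufaf4 (-0.14) were the members with a value below 0, none of them called, that of Ndufb4 from its dim probe set alone.

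The number of members called higher in REC rested on single arrays. It was 7 without REC replicate 3, 9 without REC replicate 2, 10 without NX replicate 1 and 12 without NX replicate 4, and 16 to 24 without any other array. The 7 subunits called higher in REC with every array left out in turn were Ndufb6, Ndufb3, Ndufa7, Ndufv2, Ndufs4, Ndufc1 and Ndufa9. REC replicate 3 had the highest REC signal for 16 of the 22 and REC replicate 4 the lowest for 17. Beside these values, summed signals of the NK cell markers were 8769 to 13982 in REC and 3277 to 5550 in NX, with 3 of 7 markers called higher in REC, and those of the T cell markers were 9781 to 10362 and 5656 to 7677, with limma calling 0 of 9, 1 at an unadjusted p under 0.05 and 0 without moderation. The part of these cells in the subunits' level was not tested.

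The direct comparison of CH with REC uses the same arrays as the others and shows where hypoxia and recovery stood apart. Of the 44 members, 8 were called higher in CH than in REC and 23 lower, where 12.3% of all genes were called higher and 23.3% lower. After quantile normalization 3 were higher and 20 lower, after median centring 6 and 27, and when scaled on the hybridization controls 0 and 36. The 8 were Ndufa1 (3.22 ± 0.31), Ndufa3 (1.98 ± 0.28), Ndufb11 (1.92 ± 0.22), Ndufs1 (1.76 ± 0.28), Ndufa13, Ndufb9, Ndufa12 and Ndufa2, of which all except Ndufa1 turned below 0 on the hybridization controls and Ndufb11 also after quantile normalization (-0.09). The largest differences of the other sign were those of Ndufb5 (-3.03 ± 0.33), Ndufaf3 (-2.63 ± 0.38), Ndufb3 (-2.49 ± 0.25) and Ndufaf2 (-2.40 ± 0.34). Of the 8 assembly factors 6 were called lower in CH than in REC, all except Ndufaf4 and Ndufaf5. Of the core subunits, Ndufs1 was higher in CH, Ndufv1, Ndufv2, Ndufs7 and Ndufs8 were lower and Ndufs3 was not called. Leaving out CH replicate 4 or REC replicate 4 ended the calls of Ndufa12 (from 0.94 to 1.39 over the arrays left out) and Ndufa2 (from 0.83 to 1.25).

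The medians of subunits and assembly factors lay furthest apart in CH. On each array the median log2 level over the 34 subunits was 8.86 to 9.35 in NX, 9.20 to 9.79 in CH and 10.07 to 10.60 in REC, and that over the 8 assembly factors was 6.84 to 7.05 in NX, 5.02 to 6.46 in CH and 7.32 to 7.60 in REC. For the subunits the CH range therefore overlapped that of NX, whereas for the factors all CH arrays lay below all NX arrays, and in both classes all REC arrays lay above all others. The median change of the subunits exceeded that of the factors by 1.20 in CH and by 0.50 in REC against NX, and by 0.42 in CH against REC. These are descriptions of classes of unequal size and signal, and no test was made of their difference.

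Other genes of the same machinery give the surroundings of these values. Their counts stand beside 9.08% of all genes called higher and 19.5% lower in CH, and 2.50% higher and 1.79% lower in REC. Among 11 further complex I assembly factors, 3 were called lower in CH, Dmac2 (-2.08 ± 0.50), Dmac1 (-1.44 ± 0.25) and, named after its value had been seen, Nubpl (-1.11 ± 0.38), the carrier of iron-sulfur clusters for the complex, with a median of -0.77. In REC, Tmem126a was called higher (1.13 ± 0.27) and the median was 0.74. The 37 measured subunits of complexes II to V had a median of 1.46 in CH, with 21 called higher and 4 lower. The largest increases were those of Cox4i1 (3.13 ± 0.25) of cytochrome c oxidase and Atp5b (2.93 ± 0.26) of ATP synthase, and the largest decreases those of Atp5g3 (-1.64 ± 0.33) of ATP synthase and Sdhc (-1.55 ± 0.28) of succinate dehydrogenase. In REC, 9 of the 37 were called higher, led by Atp5j (1.54 ± 0.26) and Atp5g1 (1.47 ± 0.26), with a median of 0.80. On the hybridization controls the median of complexes II to V was -0.15 in CH, with 4 called higher and 12 lower, and 1.60 in REC.

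The 76 mitochondrial ribosomal proteins, which translate the core membrane subunits of complex I that mitochondrial DNA encodes, had a median of -0.70 in CH, with 6 called higher, led by Mrpl32 (3.28 ± 0.29), and 28 lower, led by Mrpl49 (-2.02 ± 0.31). In REC their median was 1.09, with 31 called higher, led by Mrpl27 (1.74 ± 0.36) and Mrpl20 (1.67 ± 0.26). Over all genes, 9.08% were called higher and 19.5% lower in CH and 2.50% higher in REC. The 6 ribosomal proteins called higher in CH thus lay near the share over all genes. The signs of both medians of the ribosomal proteins held under the 3 other scalings, but the counts did not. On the hybridization controls 1 was called higher and 66 lower in CH and 72 higher in REC, and after quantile normalization 6 were higher and 16 lower in CH. Of 12 regulators of mitochondrial gene expression, 6 were called lower in CH, among them Tfam (-2.28 ± 0.37), which packages mitochondrial DNA, and Polrmt (-1.89 ± 0.28), the mitochondrial RNA polymerase. In REC limma called 0 of the 12, with 1 higher and 1 lower at an unadjusted p under 0.05 and 0 called without moderation. The mitochondrially encoded subunits of complex I were not analysed here.

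**Figure D3:**
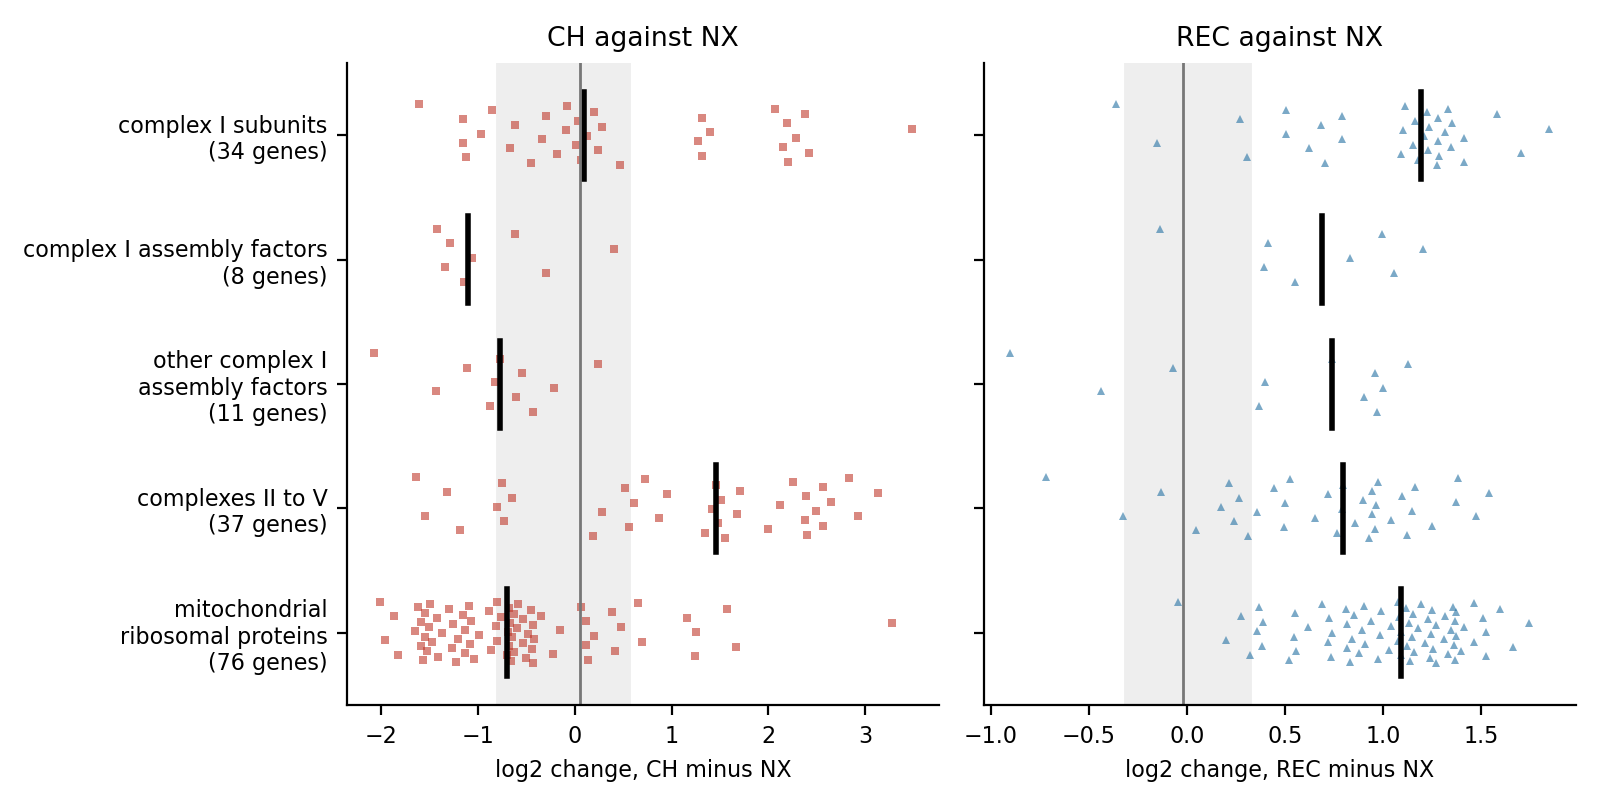
Change of each gene on the log2 scale (x axis) in CH (left) and REC (right) against NX for the complex I subunits, its assembly factors, 11 other assembly factors, 37 subunits of complexes II to V and 76 mitochondrial ribosomal proteins. Black bars are medians, the grey line and band give the median and the interquartile range of all genes, and the heights of the points carry no value. In CH the medians run from -1.10 for the assembly factors to 1.46 for complexes II to V, and in REC all 5 lie between 0.69 and 1.19. On the hybridization controls the median of complexes II to V in CH turns to -0.15.

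The calls in CH and the sign of the subunit median depended on how the arrays were put on one scale. The median of the assembly factors in CH was below 0 on each scale. Scaling on the hybridization controls moved the median of all probe sets to -0.71 in CH and 0.40 in REC against NX, and that of the subunits to -1.33 and 2.00. On that scale, 1 member was called higher and 28 lower in CH, and 39 higher in REC.

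**Figure D4:**
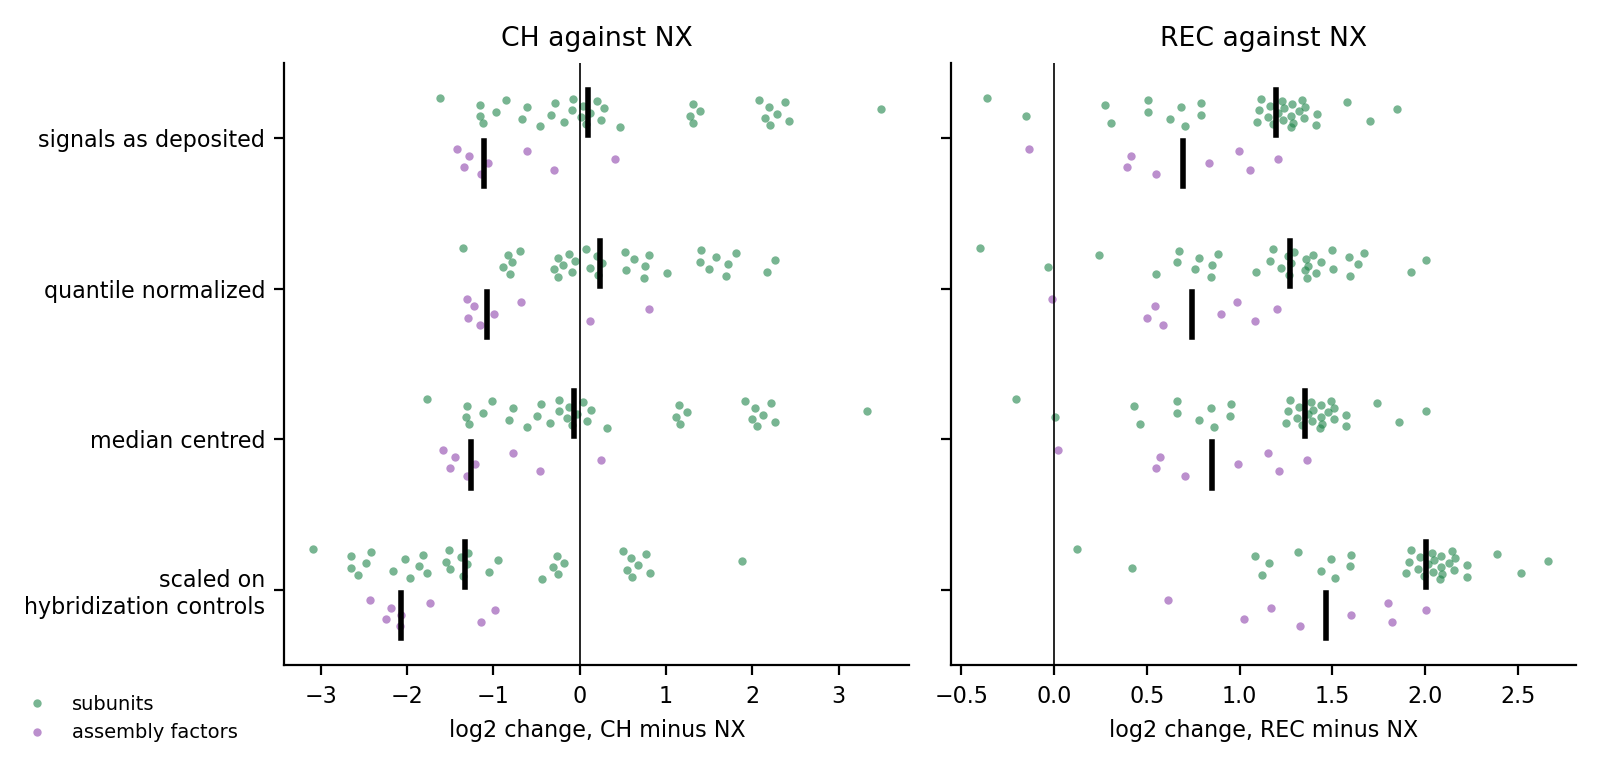
Change on the log2 scale (x axis) of the 34 subunits (green) and 8 assembly factors (purple) in CH (left) and REC (right) against NX under 4 scalings of the arrays, with a bar at each median. The assembly factors have the lower median under all 4, while the subunit median in CH is 0.09 with the signals as deposited, 0.23 after quantile normalization, -0.06 after median centring and -1.33 when scaled on the hybridization controls.

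Several members are measured by more than 1 probe set, and the value given is that of the probe set with the highest mean signal. Of the 22 such genes, the probe sets of 6 were all called in the same direction in CH against NX, those of 7 were not called at all, and in 7 some were called and others not. In Ndufc2 and Ndufs8 they were called in both directions. A dim probe set of each was higher in CH, from a mean of 2.54 in NX to 40.8 in CH for Ndufc2 and from 46.9 to 144.0 for Ndufs8, whereas brighter probe sets of the same genes were lower in CH. The 3 probe sets of Ndufb11 gave changes between 2.42 and 2.70 in CH, all called. For Ndufa7, 2 of 5 probe sets were called higher in CH (1.02 and 1.28), but not the one used, and for Ndufb2 a dimmer probe set was called higher in CH (1.09). In REC against NX, the probe sets of 6 of the 22 genes were all called in the same direction. Those of 5 were not called at all, and in 11 some were called and others not. A further 10 probe sets that name a member together with another gene were left out, and for that reason Ndufa11 and Ndufs6 were not analysed here.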

How the data were processed

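Blood RNA of 12 mice was hybridised to Affymetrix Mouse 430 2.0 arrays, 4 each in NX, CH and REC. For each array the authors deposited 1 linear intensity (signal) per probe set, with equal trimmed means. The authors' methods name GC-RMA, which yields log values, and the sources used here name no program for these linear values. The labels and the methods name different kits for RNA and labelling. No detection call, batch or scan date was used, and the number of arrays limits the precision. The platform annotation supplied gene names (of the probe sets, 34958 name 1 gene, 932 several, 9211 none), and coordinates and promoters are RefSeq's (GRCm38.p6).

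With limma 3.58.1 (lmFit, eBayes; R 4.3.3) a mean per group was fitted to log2(signal + 16). A difference of at least 2-fold was called when its p, adjusted by Benjamini-Hochberg across the 45101 probe sets, was under 0.05. The fit was tested on simulated data. A gene was read from 1 probe set, the one of highest mean log2 signal that names no other gene. Plots were made with matplotlib 3.10.9 (Python 3.11.15). Full values were given by rule for the 6 called members with the largest increase and decrease in CH, the 4 in each other comparison, the core subunits, the assembly factors, Ndufab1, Ndufa4 and Ndufa4l2, and for up to 2 called genes of each other list. Values of other members were added afterwards. The members, lists and rule were chosen with the study's tables and earlier results of these data known. The labels give 1 mouse per array, so replicates are different animals. The alternatives were quantile normalization, median centring, scaling on the hybridization controls, a pseudocount of 1, leaving out the dimmer probe sets, an unmoderated test, a trend and robust prior, other thresholds, the 8 arrays compared alone, array weights, a replicate block, each array omitted in turn, probe sets averaged per gene and updated symbols.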

Additional observations from a re-analysis of the deposited data

Results flagged for a closer look

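In 87 groups of 4 arrays, those of the 29 members named by rule, the gap of the highest or lowest array to its neighbour was set against the range of the group, and 7 exceeded Dixon's critical value for 4, which chance exceeds in about 1 of 20 groups. NX replicate 3 was set apart for Ndufb6, with a signal of 411.4 and a ratio of gap to range of 0.966. REC replicate 4 was set apart for Ndufb11 (signal 5124, ratio 0.890) and for Ndufaf5 (signal 119.4, ratio 0.839). NX replicate 1 was low for Ndufa13 (signal 1857, ratio 0.863) and NX replicate 2 for Ndufaf1 (signal 56.8, ratio 0.830). CH replicate 3 was high for Ndufb3 (signal 476.0, ratio 0.861) and CH replicate 1 low for Ndufv1 (signal 198.6, ratio 0.868).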

How the results depend on the processing

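Counts of called members moved most with scaling and threshold. In CH against NX, 13 were called higher, and 1 when scaled on the hybridization controls. The 9 called lower became 4 after quantile normalization, 28 on the hybridization controls, 0 at an adjusted p under 0.001 and 5 to 11 when each array was left out. In REC against NX, the 22 became 39 on the hybridization controls, 6 with a pseudocount of 1, 0 at an adjusted p under 0.001 and 7 to 24 over the arrays left out. In CH against REC, the 8 higher became 3 after quantile normalization and 0 on the hybridization controls, and the 23 lower became 36 there. The median of subunits minus that of factors (1.20 in CH against NX) was 0.75 on the hybridization controls, and in CH against REC (0.42) it was 0.016 on those controls, 0.92 with a pseudocount of 1 and 0.92 with probe sets averaged per gene. Of the members named by rule, Ndufs1 reversed on the hybridization controls in CH against NX (-0.18). In CH against REC Ndufb11 (-0.51), Ndufa13 (-0.67), Ndufa3 (-0.44), Ndufa12 (-1.31), Ndufa2 (-1.33) and Ndufs1 (-0.60) did, as did Ndufb11 after quantile normalization (-0.089). Of the other called members, Ndufa10, Ndufa5 and Ndufb8 turned below 0 on the hybridization controls in CH against NX, and Ndufb9 in CH against REC. The cause was not tested, except that an array left out means fewer samples. Over 52 results for the members named by rule, 1182 alternatives kept the call, 160 lost it and 8 turned the sign. With the replicate number as a block the counts were 13 higher and 9 lower in CH against NX, 21 and 0 in REC against NX and 8 and 23 in CH against REC. The deviations of arrays of the same number correlated at -0.20 to 0.44, -0.03 to 0.07 and -0.04 to 0.04 in the 3 comparisons, not above 0.1 for every number in any of them, so the samples were taken to share only a number. Values of dim probe sets, such as those of Ndufa4l2 and the one naming Ndufb4 alone, are the least certain.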
